A study of Rattus norvegicus with 14 samples.

Results

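Of the 4993 candidate SOX10-associated transcription start sites (TSSs) in the series, 578 (11.6%) lie outside the H3K4me3 peak to which they were assigned, so that no base of the TSS cluster overlaps the peak. A TSS was counted as outside when its last base lay before the first base of the peak, or its first base after the last base of the peak, in rn5 coordinates. The remaining 4415 TSSs overlap the peak. Outside refers to the assigned peak alone, and 5 members, 2 of Nr4a1 and 1 each of Ddit3, Qk and Rpl31, lie in another listed H3K4me3 peak. The position of a TSS relative to its peak uses no expression value, and the levels described below were not used in the choice. All candidates had been selected by the authors as TSSs active in sciatic nerve, within 1 kilobase of an H3K4me3 peak that meets a SOX10 peak, and both peak sets come from sciatic nerve.

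Tn5Prime captures the 5′ ends of polyadenylated transcripts by template switching, so that a cluster of read starts marks a TSS and its read count measures transcripts begun there. H3K4me3 is a histone mark that is deposited around active promoters and fades into the gene body. SOX10 is the transcription factor that specifies Schwann cells, the myelinating glia of peripheral nerve, and keeps their myelin genes on.

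The 14 libraries comprise wild-type adult rat sciatic nerve aged 6 to 9 months (n = 2), wild-type primary rat Schwann cells given vehicle (control, n = 3) or 250 µM CPT-cAMP, a cell-permeable cyclic AMP analogue that drives differentiation, for 3 days (cAMP, n = 3), unmodified parental S16 cells (n = 2), and S16 clones in which the first coding exon of Sox10 was targeted with CRISPR-Cas9 (ΔSOX10, n = 4). Nerve tissue holds other cell types besides Schwann cells. The primary cells are a commercial stock, S16 is a single immortalized rat Schwann cell line, and the 4 ΔSOX10 libraries are clones made with 2 guide RNAs. Libraries hold 29895599 to 79940274 reads, and the value of each TSS is given in RPM, its reads scaled to the size of the whole library. These are counts of 5′ ends, so that levels of different TSSs compare without a length correction. Per the methods the nerves, the primary cell populations and the clones were separate, and the 2 parental libraries came from separate RNA samples, which are not said to be separate cultures, so that their spread may be technical.

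The Sox10 TSS itself, which overlaps its peak, checks the labels. It measured 48.6 and 42.4 RPM in nerve, 136, 149 and 140 RPM in the control group, 123, 117 and 137 RPM after CPT-cAMP, and 90.7 and 77.5 RPM in parental S16 cells. In the ΔSOX10 clones it measured 0.0255, 0.0254, 0 and 0.114 RPM, the last being the clone labelled 2-2. The labels and this TSS go together in every library.

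Most outside TSSs lie on the transcribed side of the peak. In the direction of transcription 458 lie downstream of the peak and 120 upstream of it. The gap between the nearest ends of TSS and peak ranged from 3 to 997 bp with a median of 478 bp. The outside clusters were narrower than those in peaks, with a median width of 29.5 bp against 60 bp. Clusters of at most 10 bp made up 30.6% of the outside TSSs and 14.7% of the overlapping ones, while clusters of 150 bp or more made up 6.06% and 9.20%. The H3K4me3 peaks beside them had much the same median width, 2082 bp against 2169 bp.

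SOX10 peaks were correspondingly far away. A SOX10 peak overlapped 27 of the outside TSSs (4.67%) and 57.8% of the overlapping TSSs, and 510 outside TSSs (88.2%) lay 500 bp or more from it against 20.6%. The upstream TSSs were nearer to SOX10 peaks than the downstream ones, with 15 of 120 (12.5%) against 12 of 458 (2.62%) overlapping one.

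The outside TSSs belong to 368 named genes and 391 peaks, and 29 carry no gene symbol. Among these genes 283 have 1 outside TSS, 74 have 2 to 4 and 11 have 5 or more. For 273 of the genes another TSS in the table overlaps a peak, and 95 genes have outside TSSs alone. The 433 outside TSSs of the former genes reached a median of 8.14% of the level of the gene's strongest in-peak TSS in nerve, and 31 of them were above it. In most cases (387 of 433) the outside TSS lay downstream of that strongest TSS. Genes of protein synthesis and the cytoskeleton contributed many members. Ribosomal protein genes gave 45 outside TSSs (7.79% of members, against 2.45% of overlapping TSSs), translation factors 25 (4.33% against 1.04%), actin and other cytoskeletal genes 25 (4.33% against 1.93%), and the glycolytic genes Aldoa and Gapdh 20 (3.46% against 0.272% for the glycolysis list). Myelin and glial genes gave 12 (2.08% against 3.85%). These shares are descriptions, and TSSs of one gene share its transcription.

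No rn5 sequence of the outside TSSs is shown. The RefSeq promoters of 3 genes with an outside TSS that changed with CPT-cAMP or in ΔSOX10 cells are printed instead, from 250 bases before to 50 bases after the annotated gene start in GRCr8, a later build than rn5, so that they place the gene and not the outside TSS. They lie at chr7:134259888-134260187 (plus strand, Nr4a1), chr6:61317179-61317478 (plus strand, Etv1) and chr3:28618686-28618985 (plus strand, Npdc1). Capitals mark matches, on either strand, to the SOX core letters ACAAAG or ACAATG and to the cyclic AMP response element (CRE) core TGACG, which the full element TGACGTCA contains on both strands.
Nr4a1: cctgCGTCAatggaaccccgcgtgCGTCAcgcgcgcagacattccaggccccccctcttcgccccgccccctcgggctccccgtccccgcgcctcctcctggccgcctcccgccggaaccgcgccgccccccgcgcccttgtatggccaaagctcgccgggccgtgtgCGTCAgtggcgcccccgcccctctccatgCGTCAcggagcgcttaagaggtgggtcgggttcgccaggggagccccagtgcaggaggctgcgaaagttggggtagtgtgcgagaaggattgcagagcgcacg
Etv1: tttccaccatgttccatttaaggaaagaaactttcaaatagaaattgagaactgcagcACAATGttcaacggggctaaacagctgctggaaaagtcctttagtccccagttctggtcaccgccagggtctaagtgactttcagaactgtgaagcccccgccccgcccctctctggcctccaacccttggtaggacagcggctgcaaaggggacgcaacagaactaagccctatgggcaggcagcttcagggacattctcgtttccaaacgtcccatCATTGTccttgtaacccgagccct
Npdc1: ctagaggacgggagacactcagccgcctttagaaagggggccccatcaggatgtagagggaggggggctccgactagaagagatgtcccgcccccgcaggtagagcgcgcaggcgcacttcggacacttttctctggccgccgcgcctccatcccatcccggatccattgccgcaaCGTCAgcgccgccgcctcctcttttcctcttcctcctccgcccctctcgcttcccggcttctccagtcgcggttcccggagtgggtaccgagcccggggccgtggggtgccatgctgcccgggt

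Nr4a1 holds 4 CRE cores, all on the minus strand, and no SOX core. Etv1 holds 2 SOX cores, 1 on each strand, and no CRE core, and Npdc1 holds 1 CRE core. Promoters of other genes with a changed outside TSS were read but not printed. Those of Akr1c19 (SOX), Eef1a1 (CRE) and Cdkn1b (both) hold a core. Those of Ddit3, Golga2, Rplp0 and Serpinh1 hold neither. Of all 27457 rat promoters of this length 22.0% hold the CRE core, 28.6% a SOX core and 1.91% the full element. Of the 368 genes with outside TSSs 299 had a promoter in the table, and 37.1%, 14.7% and 2.68% of these held the CRE core, the SOX core and the full element. GGGCGG, the GC box, was in 69.6% of them and in 34.9% of all promoters, CCAAT in 36.8% and 37.7%, and TATAAA in 7.69% and 14.3%. The other candidate genes were not counted apart, so that these shares do not tell genes with outside TSSs from them. A match describes letters in this window and is not a binding site.

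**Figure D1:**
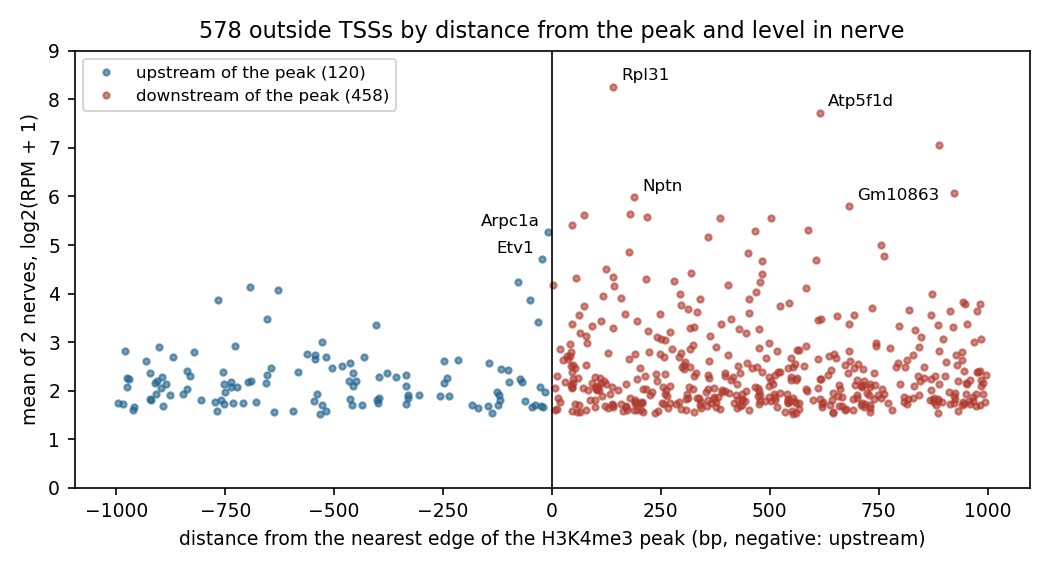
Each point is 1 of the 578 outside TSSs, with its distance in bp from the nearest edge of its H3K4me3 peak on the x axis (negative values are upstream) and its mean level in 2 nerves as log2(RPM + 1) on the y axis. The highest TSSs, Rpl31 and Atp5f1d, lie downstream, and the highest upstream TSSs, Arpc1a and Etv1, lie within 22 bp of the edge.

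The TSSs at the boundary were mostly low, Evi5 apart. The 3 members nearest the edge were Evi5 (3 bp, 17.4 and 16.5 RPM in the 2 nerves), RGD1565784 (6 bp, 0 and 4.06 RPM) and Zc3h11a (8 bp, 1.81 and 4.51 RPM). Among the overlapping TSSs that reach least far into their peak were those of Ctsd (4.95 and 1.30 RPM) and Csf1r (4.82 and 1.07 RPM). At the far end Mbd1 (997 bp, 0 and 8.05 RPM), Chd8 (996 bp, 0.435 and 4.30 RPM) and Nol7 (994 bp, 1.87 and 2.89 RPM) lay farthest. Level did not fall with distance: the median of the nerve means was 3.71 RPM within 100 bp, 3.11 RPM from 101 to 250 bp, 3.27 RPM from 251 to 500 bp, 3.32 RPM from 501 to 750 bp and 3.42 RPM beyond 750 bp.

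Outside TSSs were low in nerve and much lower in culture. Their median level was 2.66 and 4.61 RPM in the 2 nerves, against 8.16 and 7.87 RPM for overlapping TSSs. In control cells it was 0.228, 0.0306 and 0.428 RPM, and in cAMP-treated cells 0.131, 0.187 and 0.308 RPM, where overlapping TSSs had medians of 11.2 to 12.4 RPM. In parental S16 cells it was 0.463 and 0.765 RPM against 9.45 and 8.79 RPM, and in the ΔSOX10 clones 0.0285 to 0.381 RPM against 6.69 to 7.78 RPM. The 2 groups of TSSs thus lay closest in nerve, the tissue in which the candidates had been chosen and had to be expressed, with no candidate under 1.82 RPM on average in nerve. A lower level in culture is not independent of this choice. Many members lie near the limit: 71.8% of outside TSSs were under 5 RPM in nerve against 36.7% of overlapping TSSs. The nerves also differed from each other, since 407 of the 578 outside TSSs (70.4%) were higher in nerve 2, against 52.1% of overlapping TSSs.

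**Figure D2:**
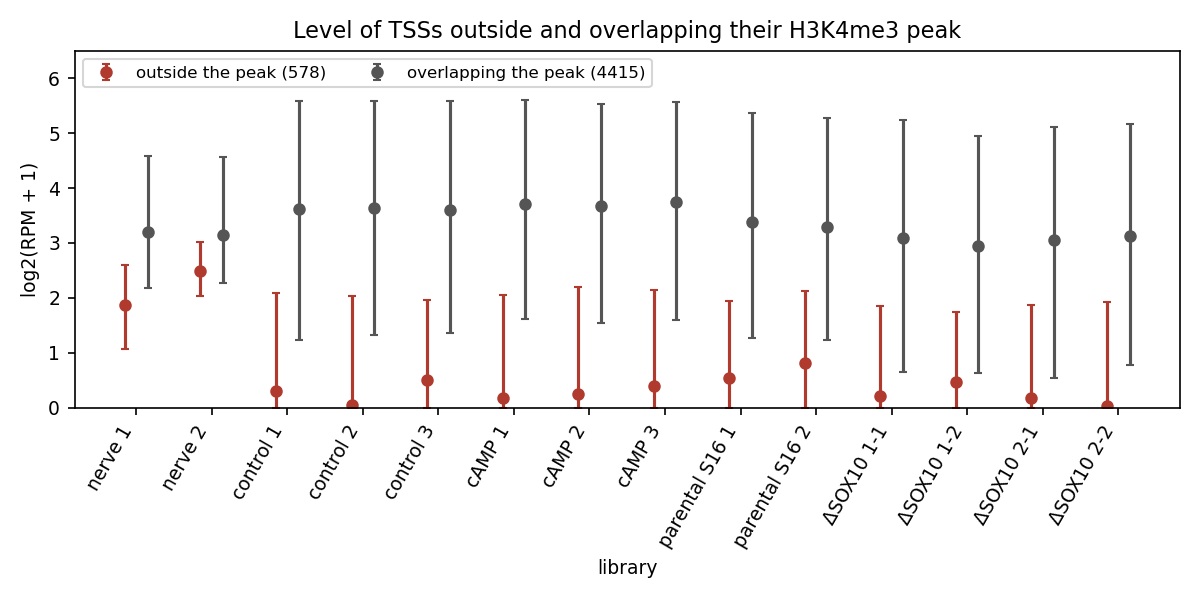
Median (point) and lower to upper quartile (bars) of log2(RPM + 1) over 578 outside TSSs (red) and 4415 overlapping TSSs (grey) in each of the 14 libraries. The medians of the outside TSSs stand nearest to those of the overlapping ones in both nerves and fall below 1 RPM in all 12 culture libraries.

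Detection followed the same order. Above 1 RPM were 77.2% and 96.2% of outside TSSs in the nerves and 38.1% to 45.8% in culture libraries. No read at all was listed for 85 and 16 outside TSSs in the nerves, and for 234 to 284 in each culture library. In all 12 culture libraries 104 outside TSSs (18.0%) were at 0, against 4.26% of overlapping TSSs, and 103 (17.8%) were above 1 RPM in all 14 libraries, against 56.4%. Upstream TSSs were less often above 1 RPM everywhere than downstream ones, 9 of 120 against 94 of 458. As a share of the reads in candidate TSSs, outside TSSs held 1.32% ± 0.260 in nerve (SD, n = 2), 1.17% ± 0.00466 in control cells (n = 3), 1.41% ± 0.0368 in cAMP-treated cells (n = 3), 1.21% ± 0.0596 in parental S16 cells (n = 2) and 1.23% ± 0.0739 in ΔSOX10 clones (n = 4). Without the most abundant TSS of each kind, Rpl31 outside and Fth1 in a peak, it was 0.891% in control and 1.09% in cAMP-treated cells.

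Among the outside TSSs in nerve Rpl31, a protein of the large ribosomal subunit, stood first at 315 and 297 RPM in nerve, 1054 ± 16.5 RPM in control cells (n = 3) and 800.0 ± 99.6 RPM in parental S16 cells (n = 2). Its cluster at chr9:45774807-45774898 lies 141 bp beyond its peak, and overlaps a SOX10 peak. The gene has 3 outside TSSs and none in the table that overlaps its H3K4me3 peak. Atp5f1d, a subunit of mitochondrial ATP synthase, followed at 193 and 229 RPM in nerve. Others among the highest were Eef1a1, the elongation factor that brings aminoacyl-tRNA to the ribosome, with a mean of 132 ± 3.95 RPM (n = 2), the glycolytic enzyme gene Gapdh (66.3 ± 39.0), Nptn, encoding the adhesion molecule neuroplastin (62.3 ± 8.61), Gm10863 (54.6 ± 6.63), the aldo-keto reductase gene Akr1c19 (48.6 ± 3.19), LOC361985 (46.8 ± 10.4), the stress-response factor gene Ddit3 (46.4 ± 15.5), the intermediate filament gene Vim (46.0 ± 4.49) and Tpt1 (41.6 ± 1.80). All of these lie downstream of their peaks, and the Gapdh TSS differed most between the 2 nerves, at 38.7 and 93.8 RPM.

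In 11 genes the outside clusters come in runs, 87 in all, and their share of the gene's reads can be read in every library. Gapdh has 12 between bases 224694239 and 224695163 of chromosome 4, each 2 to 45 bp wide and all downstream of the peak. They held 30.2% and 38.8% of the gene's candidate reads in the nerves, and in the 12 culture libraries from 5.86% to 12% with a median of 9.95%. The 10 of Rplp0, a ribosomal stalk protein, held 16.4% and 20.2% in nerve and 1.79% to 4.2% in culture. The 8 of Aldoa, a glycolytic aldolase, held 11.3% and 13.9% in nerve and 2.75% to 4.75% in culture. For each of these genes both nerves lay above all 12 culture libraries.

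The same order held for Tuba1b (8 TSSs, a tubulin), B2m (7, a subunit of MHC class I), Cfl1 (7, the actin-severing cofilin), Vim (6), Ddx5 (5, an RNA helicase) and H3f3b (5, a histone variant), so that in 9 of the 11 genes the nerve shares did not overlap the culture shares. All of these lie downstream of their peaks except 4 of the 5 of Ddx5, whose nerves also differed widely, at 16% and 57.2%. Eef1a1 and Arhgdia, a GDP-dissociation inhibitor gene, were the exceptions. The 10 outside TSSs of Eef1a1 held most of its candidate reads in every library, 79.1% and 86.9% in nerve and 68.4% to 79.4% in culture, and the 9 of Arhgdia held 10.5% and 15.9% in nerve and 3.36% to 11.7% in culture. How often both nerves lay above all culture libraries was not counted over the other genes. All candidates were chosen for expression in nerve, where more outside TSSs lay near the limit. A higher nerve share is thus not independent of the choice. A lower share in culture was not always a lower level of the outside TSSs. Those of Vim summed to 105 ± 31.4 RPM in nerve (n = 2) and 147 ± 16.4 RPM in control cells (n = 3), where the in-peak TSSs summed to 1222 ± 153 and 15917 ± 681 RPM. Those of Cfl1 summed to 37.6 ± 24.4 and 37.1 ± 1.85 RPM, beside 731 ± 86.7 and 5629 ± 226 RPM in peaks. For Rplp0 the sums were 57.6 ± 11.3 and 45.8 ± 9.46 RPM outside and 256 ± 4.70 and 1895 ± 38.7 RPM in peaks. Gapdh differed in both, with 186 ± 41.6 and 56.7 ± 18.3 RPM outside and 352 ± 16.9 and 536 ± 24.6 RPM in peaks.

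**Figure D3:**
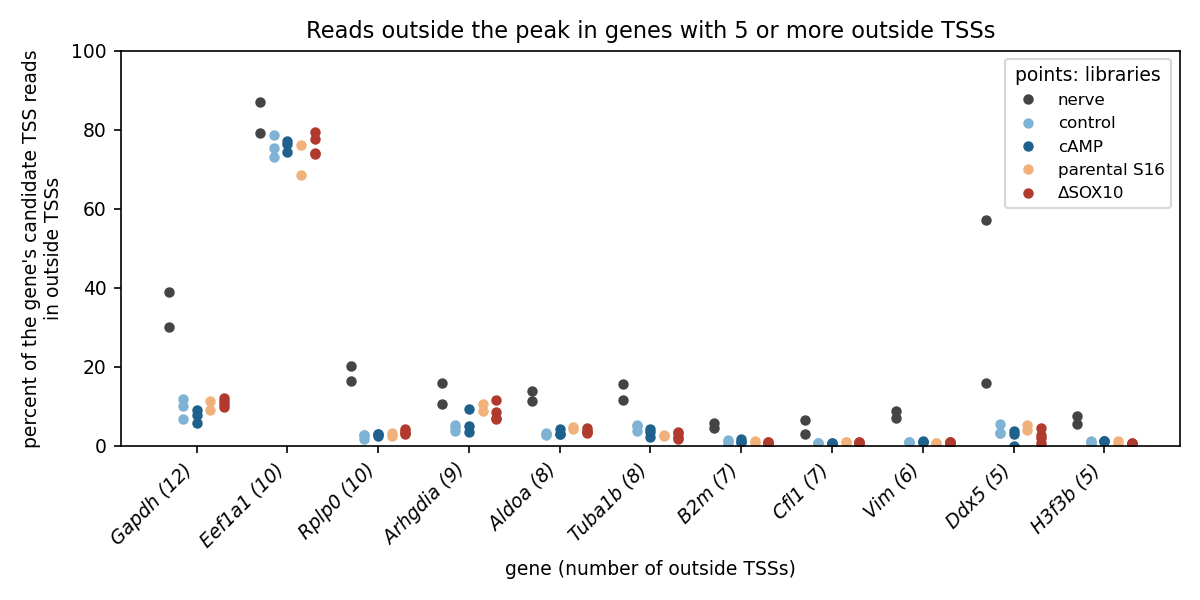
Percent of a gene's candidate TSS reads that fall in its outside TSSs, for the 11 genes with 5 or more of them (number in brackets), with 1 point per library coloured by group. Both nerve points stand above all culture points for 9 genes, and Eef1a1 stays at 68.4% or more throughout.

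Over the 273 genes with TSSs of both kinds the median percent of a gene's reads in outside TSSs was 6.00% and 12.1% in the nerves and 0.213% to 0.589% in the culture libraries. Nerve and culture libraries differ in tissue, in cell types and, for the primary cells, in sequencing instrument (HiSeq for nerve and S16 cells, NovaSeq for primary cells). The candidates were also chosen for expression in nerve, so that these higher nerve shares are not independent of the choice. The part of each was not tested.

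CPT-cAMP changed a small set of outside TSSs in primary Schwann cells. Of the 578, 311 passed the filter of more than 1 RPM in at least 2 of the 6 libraries, and limma on log2(RPM + 1), with p-values adjusted over all TSSs tested, called 20 higher (6.43%) and 13 lower (4.18%). Over all 4119 TSSs tested the shares were 12.9% higher and 11.0% lower, so that the members' shares were below the background. The outside TSSs were also noisier, with a median within-group SD of 0.643 against 0.369 on the log2 scale. Their median log2 fold change was 0.14 and that of all TSSs 0.02. The counts called lower rest on single libraries in part, since they fell from 13 to 4 without control 1 and to 6 without control 3. Markers of other cell types also moved in this comparison, and their part in it was not tested. The listed fibroblast markers Col1a1 and Pdgfra summed to 803, 898 and 909 RPM in control and 464, 370 and 466 RPM in cAMP-treated cells, with Col1a1 the more abundant. The mural marker Pdgfrb measured 1.91, 0.779 and 1.03 RPM and then 27.3, 22.4 and 29.6 RPM, and the perineurial marker Itgb4 2.87, 0.0458 and 0.311 RPM and then 5.09, 4.28 and 3.53 RPM.

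Etv1 encodes an ETS-family transcription factor, and its outside TSS at chr6:68143009-68143125 lies 22 bp upstream of the peak and overlaps a SOX10 peak. It measured 0, 0.0153 and 0.0194 RPM in control cells and 26.1, 14 and 11.4 RPM in cAMP-treated cells, with 30.1 and 20.2 RPM in nerve and 0 in all 6 S16 libraries. The groups stood far apart, with at most 1 read in each control library. The log2 fold change was 4.08 ± 0.53 (SE, adjusted p = 3.39e-06), and against the mean floor of 3 reads per library it was at least 328-fold higher. This TSS passed the filter through the cAMP-treated libraries alone, so that the p-value is given as a description.

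Nr4a1 encodes an immediate-early nuclear receptor that cyclic AMP signalling is known to induce, and 3 of its TSSs lie outside the peak. The main one, at chr7:140718023-140718154, and the narrow cluster described next lie in another listed H3K4me3 peak. The main TSS measured 7.81, 16.2 and 12.5 RPM in control and 79.1, 79.6 and 93.5 RPM in cAMP-treated cells. The groups did not overlap, and the mean was 6.91-fold higher (log2 fold change 2.74 ± 0.25, adjusted p = 2.6e-08). A narrow cluster of the same gene, starting at base 140718805, was at 0 in all 3 control libraries and at 8.41, 5.28 and 10.2 RPM with CPT-cAMP (log2 fold change 3.12, adjusted p = 0.000182). This cluster passed the filter through the cAMP-treated libraries alone, so that its p-value is given as a description. The strongest in-peak TSS of Nr4a1 rose alike, from 13.1 ± 1.33 to 119 ± 20.3 RPM (n = 3 each, log2 fold change 3.08 ± 0.21).

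Akr1c19, an aldo-keto reductase gene with no in-peak TSS in the table, rose from 0, 0.0153 and 0 RPM to 12.3, 6.08 and 12.8 RPM (log2 fold change 3.44 ± 0.55, adjusted p = 5.28e-05), with 50.8 and 46.3 RPM in nerve. Its TSS passed the filter through the cAMP-treated libraries alone, so that the p-value is given as a description. Fabp5, a fatty acid-binding protein gene, rose from 7.42, 6.33 and 7.66 RPM to 32.1, 20.0 and 33.7 RPM at its outside TSS (1.83 ± 0.33, adjusted p = 0.000255), and its strongest in-peak TSS rose from 266 ± 9.79 to 1125 ± 23.7 RPM (n = 3 each). In both genes every treated library was above every control library. The histone gene Hist4h4 rose at an upstream TSS from a mean of 15.8 ± 6.05 to 44.8 ± 5.60 RPM (n = 3 each, 1.51 ± 0.28, adjusted p = 0.00035).

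Cdkn1b, the cyclin-dependent kinase inhibitor p27, went from 3.10, 7.08 and 12.4 RPM to 17.9, 16.2 and 18.0 RPM (1.27 ± 0.42, adjusted p = 0.0305), a call that was lost in 9 of 16 alternative settings. A cluster of Eef1a1 starting at base 85389160 rose from 5.18 ± 1.74 to 16.4 ± 3.84 RPM (n = 3 each, adjusted p = 0.00805, lost in 2 of 16 alternative settings), and 2 further Eef1a1 clusters also passed the test. A Rplp0 cluster rose from 7.57 ± 0.762 to 19.0 ± 1.89 RPM (n = 3 each, 1.22 ± 0.34, adjusted p = 0.0115, lost in 1 of 16 alternative settings), while the strongest in-peak TSS of Rplp0 changed by 0.05 ± 0.05 (adjusted p = 0.558). Relative to all other TSSs of its gene this cluster did not pass the test of use (adjusted p = 0.274), and the 2 TSSs were not tested against each other.

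Of the listed glial genes, Dhh, the hedgehog ligand by which Schwann cells organize the perineurium, rose at an outside TSS from 1.35, 0 and 0 RPM to 6.98, 6.79 and 0.792 RPM (1.86 ± 0.66, adjusted p = 0.0462), with overlapping groups. Qk, the RNA-binding protein quaking, which binds myelin gene transcripts, rose at a TSS that lies in another listed H3K4me3 peak, from 2.97 ± 0.983 to 8.89 ± 2.16 RPM (n = 3 each, 1.32 ± 0.47, adjusted p = 0.0459). These were the called members among 7 tested TSSs of the myelin and glial list and 1 tested TSS of the Schwann cell regulator list. In-peak TSSs of the first list were called higher in 61 and lower in 5 of 131 cases, and those of the second higher in 5 and lower in 4 of 12. Of all 4119 TSSs tested 12.9% were higher and 11.0% lower. With so few outside TSSs tested, the outside calls of these lists are descriptions of single TSSs.

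Among the TSSs that fell, Serpinh1, a collagen chaperone, went from 43.0, 35.6 and 55.6 RPM to 18.8, 15.8 and 28.3 RPM (-1.08 ± 0.26, adjusted p = 0.00382, lost in 1 of 16 alternative settings), and its strongest in-peak TSS fell by 1.31 on the log2 scale. Ddit3, encoding the stress-response factor CHOP, whose outside TSS lies in another listed peak, went from 46.3, 32.8 and 50.4 RPM to 25, 25.5 and 19.3 RPM (-0.85 ± 0.24, adjusted p = 0.0121, lost in 4 of 16 alternative settings). LOC361985 went from a mean of 72.6 ± 4.02 to 40.5 ± 12.7 RPM (n = 3 each, -0.87 ± 0.20, adjusted p = 0.00298, lost in 2 of 16 alternative settings). The groups did not overlap in any of the 3.

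Golga2, a cis-Golgi matrix protein gene, went from 31.8 ± 7.08 to 18.2 ± 2.94 RPM (n = 3 each, adjusted p = 0.0449). Arpc1a, a subunit of the actin-nucleating Arp2/3 complex, has an outside TSS 10 bp upstream of the peak that went from 41.2, 56.7 and 38.5 RPM to 31.4, 19.1 and 31.4 RPM (-0.73 ± 0.24, adjusted p = 0.0337). The calls of Golga2 and Arpc1a were each lost in 9 of 16 alternative settings. The stronger in-peak TSS of Arpc1a went from 539.5 ± 18.8 to 254 ± 11.8 RPM (log2 fold change -1.09 ± 0.09).

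Within genes, limma's diffSplice asked whether an outside TSS changed relative to the other TSSs of its gene. It called 4 of 268 outside TSSs tested (1.49%) against 4.31% of all 1533 TSSs tested. Etv1 rose by 2.89 on the log2 scale relative to its other TSSs (adjusted p = 0.000979), a call that was lost at a pseudocount of 0.1 (adjusted p = 0.0637). Its outside TSS entered this test through the cAMP-treated libraries alone. The others were low: Nol7 rose in use, and Tomm22 and Crip2 fell, none of them over 10 RPM in either group. The Nol7 TSS, at most 0.630 RPM in control libraries, also entered through the cAMP-treated libraries alone, so that its call is a description. No outside TSS was called when TSSs needed a mean of at least 5 RPM to be tested.

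Few outside TSSs differed between the ΔSOX10 clones and parental cells, among them those of Gm10863, which neighbours Sox10, and of Nr4a1. Of 287 outside TSSs tested, limma called 1 higher (0.348%) and 6 lower (2.09%), with all 3875 TSSs at 1.65% higher and 6.55% lower. The median log2 fold change was -0.14 for outside and -0.18 for all TSSs, and with TMM or median-ratio scaling the median of all moved to -0.05, so that changes near this size depend on the scaling. The lower count fell from 6 to 2 without parental 1 and to 1 without parental 2. Marker sums moved here too, and their part was not tested. The listed Schwann cell markers summed to 10364 and 10212 RPM in parental cells and 240, 146, 163 and 400.3 RPM in the clones, and the fibroblast markers to 2829 and 2255 RPM and then 2971, 4143, 5302 and 4460 RPM, higher in every clone than in both parental libraries.

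The largest loss was at Gm10863, a transcript named after its mouse counterpart. Its TSS at chr7:120397970-120398133 on the plus strand lies 1519 bp from the Sox10 TSS at chr7:120396387-120396450, which is on the minus strand, and both were assigned to the same H3K4me3 peak at chr7:120392128-120397289. It measured 49.9 and 51.4 RPM in parental cells and 0.0510, 0.0254, 0 and 0 RPM in the clones (-5.66 ± 0.37, adjusted p = 2.95e-05). The TSS passed the filter through the parental libraries alone, so that the p-value is given as a description. All 4 clones were at or under the 3-read floor, against the mean of which they were at least 633-fold lower. CPT-cAMP moved it the other way, from 94.4, 111 and 132 RPM to 254, 248 and 205 RPM (1.07 ± 0.13, adjusted p = 2.2e-06), while the Sox10 TSS did not pass the test there (-0.17 ± 0.12, adjusted p = 0.353). The clones were edited in the neighbouring Sox10 gene, and the part of the editing itself in the loss at Gm10863 was not tested.

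The main outside TSS of Nr4a1 measured 14.8 and 18.5 RPM in parental cells and 0.0764, 0.0254, 0.109 and 0 RPM in the clones (-4.06 ± 0.37, adjusted p = 0.000175). It too passed the filter through the parental libraries alone, so that its p-value is given as a description. The strongest in-peak TSS of the gene went from 25.9 ± 1.63 (n = 2) to 5.15 ± 4.36 RPM (n = 4, -2.38 ± 0.60, adjusted p = 0.0438), and relative to all other TSSs of the gene the outside TSS did not pass the test of use (adjusted p = 0.122).

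Capg, an actin filament capping protein gene, measured 15.4 and 28.4 RPM in parental cells and 0.229, 0.203, 2.62 and 2.42 RPM in the clones at a TSS 872 bp downstream (-3.41 ± 0.60, adjusted p = 0.00812), a call lost in 3 of 15 alternative settings, one of them without parental 2 (adjusted p = 0.0606). The clones labelled 1-1 and 1-2 were lower than those labelled 2-1 and 2-2. Its strongest in-peak TSS fell from 682 ± 29.0 to 43.4 ± 15.5 RPM. Npdc1, a gene of neural proliferation and differentiation, measured 29.1 and 30.8 RPM and then 1.5, 1.37 and 1.4 RPM in 3 clones and 5.57 RPM in clone 2-1 (-3.32 ± 0.50, adjusted p = 0.0036). Its strongest in-peak TSS in nerve did not pass the test in S16 cells (-0.60 ± 0.82, adjusted p = 0.754), nor did the outside TSS relative to the other TSSs of the gene (adjusted p = 0.177).

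Slc25a4 (-1.77, adjusted p = 0.0318), a mitochondrial ADP/ATP carrier gene, and Klhl9 (-1.31, adjusted p = 0.0478) were the other members called lower, both under 5 RPM in parental cells. Ddit3 was the 1 called higher, from 49.0 and 44.7 RPM to 122, 103, 217 and 112 RPM (1.48 ± 0.30, adjusted p = 0.0159), with every clone above both parental libraries and the call lost with no filter. Within genes diffSplice called 1 of 245 outside TSSs (0.408%), a B2m cluster at 4.41 and 1.66 RPM in parental cells, against 5.28% of all 1364 TSSs.

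**Figure D4:**
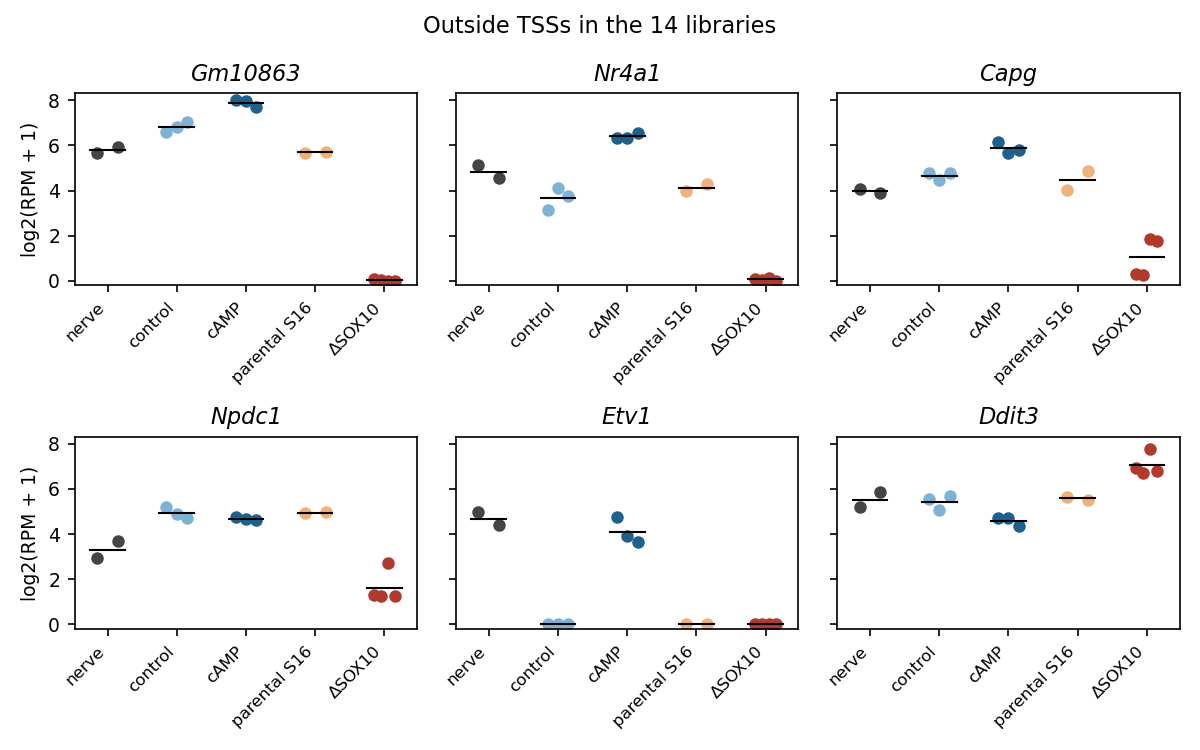
Level as log2(RPM + 1) of 6 outside TSSs in every library (points) with the group mean of these log2 values (line), by group on the x axis. Gm10863 and Nr4a1 fall to near 0 in all 4 ΔSOX10 clones and rise with cAMP, Etv1 is near 0 outside nerve and cAMP-treated cells, and Ddit3 moves in the opposite sense.

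Outside TSSs of myelin and Schwann cell regulator genes were too low in S16 cells for most of these tests, and their values are given as measured. Cnp, encoding the myelin enzyme 2′,3′-cyclic nucleotide phosphodiesterase, measured 17.3, 25.4 and 22.5 RPM in control cells, 1.6 and 2.57 RPM in parental S16 cells and at most 0.381 RPM in the clones, which did not pass the test (-1.28 ± 0.37, adjusted p = 0.0716). Its strongest in-peak TSS fell by 3.34 on the log2 scale (adjusted p = 1.54e-05). Arpc1a at its outside TSS was 0.723 and 6.48 RPM in parental cells and 0, 0, 0 and 0.827 RPM in the clones, below the filter. Dhh, Ttyh1, Paqr4 and Cmtm5 were listed at 0 in all 4 clones at each of their outside TSSs, and parental cells held at most 2.22 RPM. Plekhb1, a membrane protein gene expressed in myelinating cells, measured 11.0 and 21.9 RPM in nerve and at most 1.06 RPM in any S16 library.

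Of the regulators besides Qk, Id4, an inhibitor of DNA binding, measured 5.15 and 3.99 RPM in nerve and at most 0.821 RPM elsewhere, and the clock repressor gene Nr1d1 3.98 and 5.08 RPM against at most 1.03 RPM. Klf13 (0 and 4.48 RPM) and Bcl2 (0 and 4.79 RPM) were detected in 1 nerve and in no culture library. Thra, a thyroid hormone receptor gene, measured 3.88 and 1.30 RPM in nerve and 4.63 and 1.24 RPM in parental S16 cells.

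Parental S16 cells were also compared with nerve. Of 463 outside TSSs tested, 149 were lower in S16 cells (32.2%) and 15 higher (3.2%), against 21.1% and 23.8% of all 4659 TSSs tested. The median log2 fold change was -1.06 for outside TSSs and 0.02 for all. TMM and median-ratio scaling moved the median of all to -0.32 and -0.40, with 176 and 186 outside TSSs lower and 13 and 12 higher. Candidates were chosen for their expression in nerve, so that lower values in S16 cells are not independent of the choice, and 157 of the 463 passed the filter through the nerves alone, 132 of them among the 149. Of the other 306 tested, 17 were lower and 15 higher. Of the 3616 overlapping TSSs that did not pass through the nerves alone, 325 were lower and 1093 higher. This subset leaves out TSSs that are low in parental cells. Of outside TSSs 71.8% were under 5 RPM in nerve, against 36.7% of overlapping ones, which leaves those kept less room to fall. The subset thus cannot decide whether outside TSSs were more often lower. The count of 149 fell to 30, 14, 31 and 44 when nerve 1, nerve 2, parental 1 or parental 2 was left out. The ΔSOX10 comparison shares the parental libraries with this one.

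Listed at 0 in both parental libraries were the outside TSSs of Etv1 (30.1 and 20.2 RPM in nerve), Grb14, a receptor tyrosine kinase adaptor gene (25.3 and 10.3 RPM), Evi5, a GTPase-activating protein gene (17.4 and 16.5 RPM), Dnajc7, a co-chaperone gene (9.73 and 17.4 RPM), and a TSS with no symbol at chr4:191395327-191395407 (22.7 and 18.2 RPM). Against the 3-read floor these were at least 345, 244, 233, 186 and 281-fold lower. They passed the filter through nerve, where candidates were chosen, so that these values are a description. The same holds for Akr1c19, at 48.6 ± 3.19 RPM in nerve and 0.0680 ± 0.0962 RPM in parental cells (n = 2 each). Cers2, a ceramide synthase gene whose product makes the very long chain lipids of myelin, measured 24.9 ± 1.87 and 0.725 ± 0.989 RPM (n = 2 each), with 1.42 RPM in parental 1. The strongest in-peak TSS of Cers2 stood level, at 115 ± 7.91 and 118 ± 14.8 RPM, and within the gene the outside TSS fell by 4.07 on the log2 scale (adjusted p = 0.00369). The outside TSS of Cers2 was also chosen for expression in nerve, so that this fall is not independent of the choice.

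Among the 15 outside TSSs that were higher in S16 cells, Atp5f1d rose from 193 and 229 RPM to 1286 and 1145 RPM (2.52 ± 0.14, adjusted p = 7.36e-05). Hnrnpf, an RNA-binding protein gene, rose from 6.49 and 8.76 RPM to 67.8 and 53.4 RPM (2.84 ± 0.31, adjusted p = 0.000849), and Serpinh1 from 3.48 and 7.66 RPM to 57.7 and 39.3 RPM (2.96 ± 0.44, adjusted p = 0.00295). None of these 3 overlapped between the groups.

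Tmpo, a nuclear lamina protein gene (6.23-fold), Homer3, a scaffold protein gene (6.09-fold), Ap2a1, a subunit of the clathrin adaptor AP-2 (5.95-fold), Pih1d1, encoding a subunit of a chaperone complex (5.20-fold), and an Arhgdia cluster (4.43-fold) were also higher in both parental libraries than in both nerves, with adjusted p from 0.00203 to 0.023. The Pih1d1 call was lost in 2 of 12 alternative settings, one of them without parental 2 (adjusted p = 0.125). Control primary cells measured 86.3, 86.2 and 91.1 RPM at Hnrnpf and 46.1, 51.6 and 55.4 RPM at Homer3, above both nerves, while at the Arhgdia cluster 1 of 3 control libraries (8.05 RPM) lay below nerve 2.

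The marker genes listed in the table differ between nerve and S16 cells, and their part in these differences was not tested. Of 10 Schwann cell markers 9 are listed, with sums of 72510 and 73552 RPM in nerve and 10364 and 10212 RPM in parental cells, Pmp22 being the most abundant. Of 7 fibroblast markers Col1a1 and Pdgfra are listed, with 134 and 138 RPM in nerve and 2829 and 2255 RPM in parental cells, Col1a1 being the most abundant. Pdgfrb, the 1 listed of 5 mural markers, had 30.6 and 54.8 RPM in nerve, the perineurial marker Itgb4, 1 of 3, 51.1 and 51.5 RPM, and the macrophage marker Csf1r, 1 of 5, 4.82 and 1.07 RPM. In parental cells Pdgfrb had 4.95 and 6.66 RPM, and Itgb4 and Csf1r were at 0. No endothelial, muscle or adipocyte marker is among the candidate TSSs. In bulk libraries fewer cells of a type and less RNA per cell cannot be told apart.

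Within genes diffSplice called 66 of 377 outside TSSs (17.5%) between parental S16 cells and nerve, against 21.4% of all 2055 TSSs in either direction. Of the 66, 59 were lower in use, and the direction was not counted over all TSSs. Candidates were chosen for expression in nerve, so that the 59 are a description. Of the 377, 109 passed the filter through the nerves alone, 29 of them among the 66. The count fell to 19, 17, 4 and 9 without nerve 1, nerve 2, parental 1 or parental 2. Besides Cers2, use was lower for Ppib, an endoplasmic reticulum cyclophilin gene (-2.30, adjusted p = 0.00391), for a Gapdh cluster starting at base 224694335 (-2.13, adjusted p = 0.00716) and for the respiratory chain subunit gene Cox8a (-2.0, adjusted p = 0.0397). The outside TSS of Ppib itself was nearly level, at 10.5 and 11.2 RPM in nerve and 7.12 and 8.79 RPM in parental cells, while its strongest in-peak TSS rose from 175 ± 23.3 to 577 ± 38.0 RPM (n = 2 each). Use was higher for Npdc1 (2.31, adjusted p = 0.00686) and for Mcam, an adhesion molecule gene (2.58, adjusted p = 0.0459), whose outside TSS measured 8.26 and 11.0 RPM in nerve and 43.2 and 41.2 RPM in parental cells. The Cox8a and Mcam calls were lost in 6 of 10 and 6 of 9 alternative settings, those of Npdc1, Gapdh and Ppib in 4, 3 and 2 of 10.

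The gene groups were read against the shares of all TSSs tested, 12.9% higher and 11.0% lower with CPT-cAMP, 1.65% and 6.55% in ΔSOX10 cells and 23.8% and 21.1% in parental S16 cells against nerve. Of all outside TSSs tested and lower against nerve, 132 passed the filter through the nerves alone, which was not counted by group. Group counts against nerve are thus descriptions. The 45 outside TSSs of ribosomal protein genes gave 2 higher calls among 43 tested with CPT-cAMP (median log2 fold change 0.32), none among 39 in ΔSOX10 cells (-0.00), and 2 higher and 4 lower among 45 in parental S16 cells against nerve (-0.58). In-peak TSSs of the same list were higher in 37 of 107 cases with CPT-cAMP (0.33), and higher in 44 and lower in 2 of 107 against nerve (0.72). Those of translation factors gave 3 higher of 21 with CPT-cAMP (0.45), all in Eef1a1, none of 19 in ΔSOX10 cells (-0.12) and 3 lower of 24 against nerve (-0.22), where in-peak TSSs gave 6 higher and 6 lower of 46 with CPT-cAMP (0.13) and 19 higher and 4 lower of 45 against nerve (0.90). The 20 of Aldoa and Gapdh gave no call among 17 tested with CPT-cAMP and 19 in ΔSOX10 cells, and 1 lower call among 20 against nerve (-0.60), where in-peak TSSs of the glycolysis list gave 4 higher and 1 lower of 11 with CPT-cAMP and 5 higher and 5 lower of 12 against nerve (-0.38). The 25 cytoskeletal TSSs gave 3 higher and 3 lower of 24 with CPT-cAMP (-0.00), 1 lower of 24 in ΔSOX10 cells (-0.34), which is Capg, and 1 higher and 3 lower of 25 against nerve (-0.33). In-peak cytoskeletal TSSs gave 12 higher and 13 lower of 74 with CPT-cAMP (0.12), 2 higher and 4 lower of 75 in ΔSOX10 cells, and 17 higher and 8 lower of 81 against nerve (0.19).

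The 27 mitochondrial TSSs gave 1 higher and 1 lower call of 18 with CPT-cAMP, 1 lower of 20 in ΔSOX10 cells and 2 higher and 3 lower of 23 against nerve (-0.30), where in-peak TSSs gave 69 higher and 9 lower of 125 (0.83). RNA processing genes gave no call among 8 TSSs tested with CPT-cAMP and 6 in ΔSOX10 cells, and 1 higher and 6 lower of 14 against nerve (median -1.43, where in-peak TSSs of the same list had 1.38). Of 10 proteasome and ubiquitin TSSs 2 were lower against nerve, as were 2 of 7 tested histone TSSs and all 3 of the nuclear RNA Neat1, where 32.2% of outside TSSs and 21.1% of all TSSs tested were lower. Without TSSs that passed the filter through the nerves alone, 17 of 306 outside and 325 of 3616 overlapping TSSs were lower. In-peak TSSs of the long noncoding list, which holds Neat1, were lower in 74 of 92 cases (median -2.01). Of the 4 TSSs of the cholesterol and lipid genes Dbi, Fads2 and Srebf2 1 was tested in each comparison and gave no call, where in-peak TSSs of the list were higher with CPT-cAMP in 15 of 21 cases (median 1.02). Of the matrix genes Col1a1 and Serpinh1 only Serpinh1 was called.

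Outside TSSs and the strongest in-peak TSS of the same gene were set side by side wherever both were tested. In the cAMP comparison the log2 fold changes of 251 such pairs, from 147 genes, correlated with Pearson's r = 0.593 and Spearman's rho = 0.508 across TSSs that share libraries and genes, and the median difference (outside minus in-peak) was 0.05. All 23 called outside TSSs of these pairs had the sign of the in-peak TSS, and for 18 of them it was called too. In the ΔSOX10 comparison r was 0.497 and rho 0.305 over 231 pairs, with a median difference of 0.05 and all 5 called outside TSSs of the same sign as the in-peak TSS, which was called too for 2 of them.

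Between parental S16 cells and nerve r was 0.519 and rho 0.503 over 350 pairs from 210 genes. The median difference was -1.89, and 56 of 103 called outside TSSs had the sign of the in-peak TSS, which was called too with that sign for 36 of them. Without the outside TSSs that passed the filter through the nerves alone, the median difference was -1.92 and r 0.381 over 251 pairs, and 13 of 23 called outside TSSs had the sign of the in-peak TSS. All of them are still candidates chosen for expression in nerve, so that this difference is not independent of the choice. The strongest in-peak TSSs of Vim, Gapdh and Rplp0 had log2 fold changes of 3.22 ± 0.11, 2.03 ± 0.12 and 2.48 ± 0.12, where their highest outside TSSs gave -0.97 ± 0.25 (Vim, adjusted p = 0.0202) and -1.04 ± 0.41 (Gapdh, adjusted p = 0.0819), and a Rplp0 cluster -0.07 ± 0.51 (adjusted p = 0.924).

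**Figure D5:**
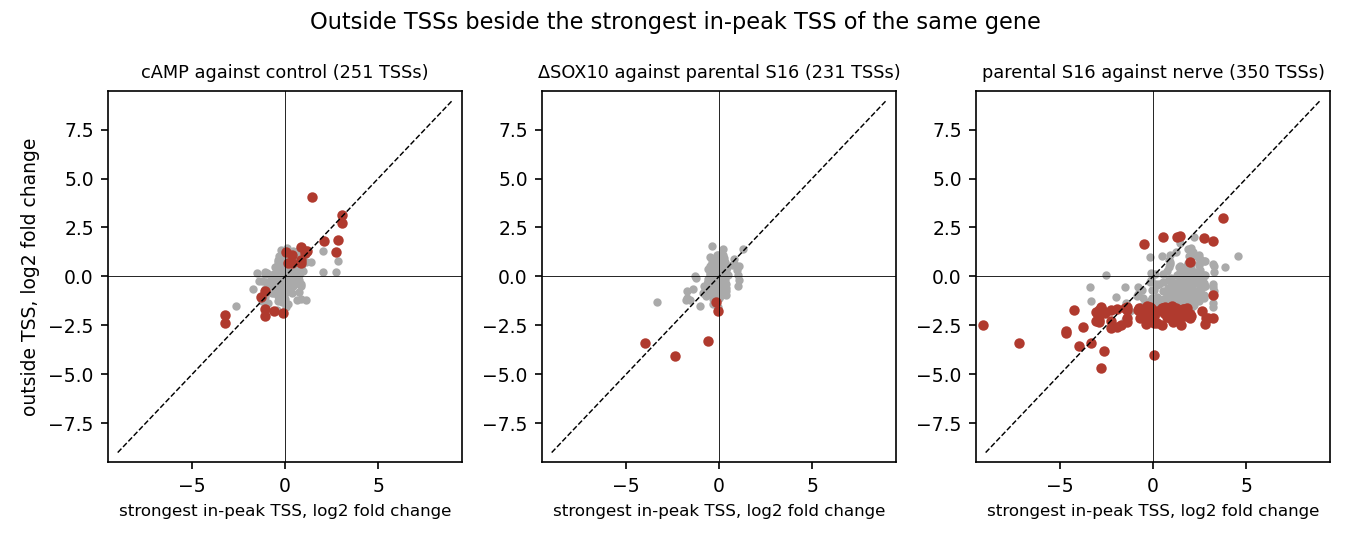
Log2 fold change of outside TSSs (y axis) against that of the strongest in-peak TSS of the same gene (x axis) in 3 comparisons, for TSSs tested in both, with outside TSSs called by limma in red, the others in grey and equal change as a dashed line. The points centre on the line with cAMP and in ΔSOX10 cells, and lie below it between parental S16 cells and nerve, where the median difference was -1.89.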

How the data were processed

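Tn5Prime libraries were prepared by the authors from total RNA of each sample and sequenced on HiSeq or NovaSeq instruments. Per the labels and methods, reads were trimmed with cutadapt 1.14, mapped to rn5 with STAR 2.5.2a, clustered into TSSs with Paraclu and counted with featureCounts (Subread 1.6.1). The deposited values are RPM (reads scaled to the whole library) per TSS and library, for 4993 candidate TSSs. The same table holds the authors' own log2 fold changes and FDR values, which were not used.

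RPM values were whole multiples of 1 read within 0.1 read in 10 libraries. This held for 84.2% to 92.3% of nonzero values in both parental and the 2 ΔSOX10 libraries labelled 1, which are in part rounded to 3 digits. In nerve 2 the size of 1 read rested on only 53 low values. TSSs above 1 RPM in 2 libraries of a comparison were tested on log2(RPM + 1) with limma 3.58.1 in R 4.3.3 (lmFit, eBayes with trend, diffSplice for use within genes), two-sided, with Benjamini-Hochberg adjustment over all TSSs tested and a threshold of 0.05. Fold changes on this scale understate those of low TSSs. On recovered reads, DESeq2 1.42.0 and edgeR 4.0.16 served as alternatives, beside other scalings, pseudocounts, filters and left-out libraries. The steps were tested on simulated data.

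Named TSSs were the 12 highest in nerve, those called with groups that did not overlap and 10 RPM or more (at most 8 per comparison and direction), up to 6 per comparison by use, genes with 5 or more outside TSSs, the myelin and regulator lists, and the 3 farthest, nearest outside and nearest inside. Called TSSs under 10 RPM or with overlapping groups that the text names were chosen after their values were seen. Members, gene lists and tests were chosen with earlier results of these data known. Some of the TSSs this rule names are not reported here. A floor of 3 reads covers counting error only. Promoters are from RefSeq (GRCr8).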

Additional observations from a re-analysis of the deposited data

Results flagged for a closer look

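Among the named TSSs, 45 had values that differed between the 4 ΔSOX10 clones, and in 7 of them 1 clone stood apart from the other 3 by Dixon's criterion at 95%, which flags about 1 group in 20 by chance where values vary freely. Clone 2-2 had 701 RPM at Rpl31, where the others had 802 to 812 RPM. Clone 2-1 had 5.57 RPM at the Npdc1 TSS, against 1.37 to 1.5 RPM in the others, all under the 29.1 and 30.8 RPM of the parental cells. The remaining 5 were TSSs at 0 in 3 clones, where any read in the other clone meets the criterion and the rate of 1 in 20 does not apply: Arpc1a with 0.827 RPM in clone 2-2, Plekhb1 with 0.0254 RPM (1 read) and Chd8 with 0.813 RPM in clone 1-2, Zc3h11a with 1.12 RPM in clone 1-1, and Csf1r, which overlaps its peak, with 0.966 RPM in clone 1-2. The cause of these differences was not tested.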

How the results depend on the processing

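The 41 effects named for single TSSs kept their sign under all 528 alternative values, and 463 of these stayed past the threshold, with 24 effects past it in every alternative that gave a value. Leaving out a library in the group with reads gave none where the TSS then failed the filter, as for Gm10863 and Nr4a1 in ΔSOX10 cells and for Etv1, Grb14, Evi5, Dnajc7, Akr1c19 and the TSS with no symbol against nerve. The counts of outside TSSs moved more. With CPT-cAMP, 20 higher calls became 13 with all 14 libraries in 1 model and 13 lower calls became 20 with DESeq2, 8 with edgeR, 5 at a mean of 5 RPM and 8 with no filter. The 4 changes in use became 0 at a mean of 5 RPM, 7 at a pseudocount of 0.1 and 14 at 5. In ΔSOX10 cells the 1 higher call became 5 with DESeq2, 2 with edgeR, TMM, median-ratio scaling, a pseudocount of 0.1 or all 14 libraries, and 0 with no filter, where the 6 lower calls became 12. The 1 change in use became 2 when TSSs were grouped by peak or at a pseudocount of 5, 3 with median-ratio scaling or a pseudocount of 0.1, and 0 at a mean of 5 RPM. Between parental S16 cells and nerve the 149 lower calls became 28 at a mean of 5 RPM, 66 with no filter and 92 at a pseudocount of 5, and the 66 changes in use 32 at a mean of 5 RPM and 115 at a pseudocount of 5. Counting only TSSs above 1 RPM in a parental library, a choice made after seeing the data, left 17 lower calls and 37 changes in use there. By the same rule 17 of 306 outside and 325 of 3616 overlapping TSSs were lower. The rule leaves out TSSs that are low in parental cells, so that it cannot decide whether outside TSSs were more often lower. Stricter or absent filters change the number of TSSs tested, and the cause of the other shifts was not tested. DESeq2 and edgeR were not run against nerve, because the size of 1 read in nerve 2 rested on only 53 low values.

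With 1 library left out at a time, the counts ranged from 16 to 18 higher and 4 to 10 lower with CPT-cAMP (3 to 5 in use), 1 higher and 1 to 5 lower in ΔSOX10 cells (0 to 1 in use), and 13 to 21 higher and 14 to 44 lower in parental S16 cells against nerve (4 to 19 in use). With a single library in a group, its spread was taken from the other group.

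The median level in nerve was 2.66 to 4.61 RPM for outside and 7.87 to 8.16 RPM for overlapping TSSs in single nerves. Without the most abundant TSS of each kind the share of candidate reads was 0.891% in control, 1.09% in cAMP-treated, 1.01% in parental and 1.04% in ΔSOX10 cells. Reading starts as 0-based gave 579 outside TSSs.

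A replicate block gave 21 higher and 14 lower calls with CPT-cAMP (3 in use) and 19 higher and 166 lower between parental S16 cells and nerve (63 in use). Samples with the same number correlated at 0.0294, 0.00751 and 0.0379 and at 0.0208 in their deviations from the group means, so that the numbers were not taken to pair samples, and the block moved no count by over 1.5 times.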
